A study of Mus musculus with 36 samples.

Results

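Late night was set against late day in the suprachiasmatic nucleus (SCN) region of mice on normal chow, by comparing 3 libraries taken at zeitgeber time (ZT) 20 with 3 libraries taken at ZT 8. These are 6 of the 36 libraries of the series, and the comparison runs over all genes in the deposited table of the chow-fed mice. ZT is counted in hours from lights on by convention; the light schedule was not given in the sources used here. All 36 libraries are polyadenylated, stranded RNA-seq of an SCN-enriched block of fresh, snap-frozen brain from adult C57BL/6J mice, a wild-type inbred strain, fed for 10 weeks. High-fat diet was the tested diet and normal chow its control, each with 3 libraries at ZT 0, 4, 8, 12, 16 and 20. Neither the sex of the mice nor whether each library came from 1 animal was given in the sources used here, so the p-values measure the spread between libraries, part of which may be technical. The block is a tissue homogenate, so fewer cells of a type and less RNA per cell cannot be told apart in any difference below.

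The SCN is the hypothalamic pacemaker that holds the body's daily rhythms to the light cycle. In its neurons and astrocytes the activators CLOCK and BMAL1 (gene Arntl) bind E-box elements and switch on Per, Cry, Nr1d1 and Dbp. PER and CRY proteins then inhibit the activators, and the nuclear receptor REV-ERB alpha (Nr1d1) represses Arntl. In mice, which are active at night, body temperature and circulating corticosterone are higher around the active phase, and heat shock chaperones, cold-inducible RNA-binding proteins and glucocorticoid-responsive genes are known to follow those daily signals.

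Levels are given as rescaled FPKM, the deposited FPKM (fragments per kilobase of transcript, relative to the library's mapped fragments) after each library was scaled to sum to 1000000. Differences are on the log2(rescaled value + 1) scale, ZT 20 minus ZT 8, with standard errors from limma, fitted over the 18 chow libraries; the shift of 1 understates the change of genes at low levels. A row was called at a Benjamini-Hochberg adjusted p under 0.05 over all 15150 rows tested. The summed deposited values did not overlap between the times, at 354647 to 359746 at ZT 20 and 375317 to 394628 at ZT 8, within a range of 302899 to 432336 over all 36 libraries. Pearson's r between libraries was 0.969 to 0.977 within a time (6 pairs) and 0.969 to 0.976 between ZT 20 and ZT 8 (9 pairs), so the libraries of 1 time were hardly more alike than those of both.

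The test called 13 of 15150 rows, or 0.0858%. At ZT 20, 9 rose and 4 fell, or 0.0594% and 0.0264% of rows. The genes that fell were Dbp and Nr1d1 of the circadian clock, the cold-inducible Rbm3, and Bcl7c. The genes that rose were the endoplasmic reticulum (ER) proteins Calr and Pdia4, the HSP90 co-chaperones Chordc1 and Stip1, the glucocorticoid-responsive Plin4 and Cdkn1a, the RNA-processing genes Hnrnpm and Mettl16, and Plcd4. At an unadjusted p under 0.05 there were 1174 rows (7.75%), 858 higher and 316 lower. Libraries of the 2 times did not overlap in 27.8% of all rows, with 23% higher and 4.76% lower at ZT 20. A called gene was chosen on these same libraries, so a lack of overlap adds nothing to its call. The split of the calls moved with scaling: it was 9 higher and 4 lower after scaling to an equal sum, 4 and 4 with median-of-ratios size factors, and 2 and 3 on the values as deposited.

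**Figure D1:**
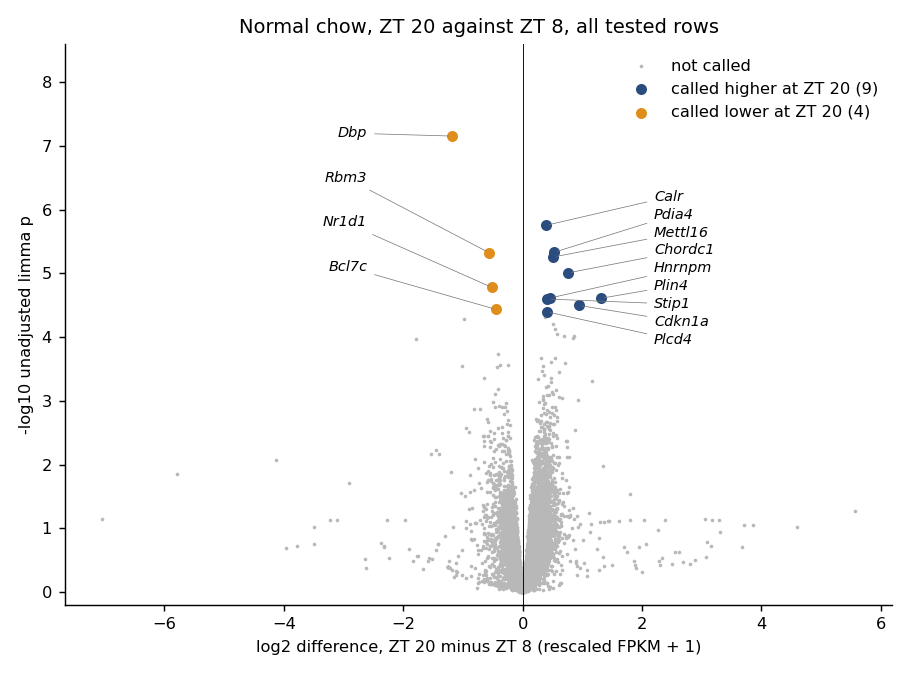
Log2 difference (ZT 20 minus ZT 8, x axis) against the −log10 of the unadjusted limma p (y axis) for the 15150 rows tested under normal chow. The 9 genes called higher at ZT 20 and the 4 called lower are coloured and named, and Dbp has the smallest p.

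The call set was thin and depended on single libraries. Dbp was the only call without ZT 20 replicate 1, without ZT 20 replicate 2, without ZT 8 replicate 1 or without ZT 8 replicate 3. There were 6 calls without ZT 20 replicate 3 and 7 without ZT 8 replicate 2. None of the 13 genes changed sign in any alternative run, and Dbp stayed called in 19 of 20. With scores of 5 marker lists for neighbouring tissues as covariates no row was called. An unadjusted limma p under 0.05 was then found in 470 rows, fewer than the 1174 of 15150 (7.75%) without the scores.

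Dbp, a transcription factor of the PAR bZIP family whose gene is a direct output of CLOCK and BMAL1, had 47.1, 43.5 and 43.2 rescaled FPKM at ZT 20, against 91.2, 102 and 114 at ZT 8. The highest ZT 20 library was thus well below the lowest ZT 8 library. Dbp fell by 1.18 ± 0.12 (SE) on the log2 scale (adjusted p = 0.00106), a ratio of means of 0.435. The gene spans chr7:45705088-45710203 on the plus strand (GRCm38, GENCODE M21, as for all genes below).

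Nr1d1, the REV-ERB alpha repressor, had 74.9, 79.7 and 71.8 rescaled FPKM at ZT 20, against 103, 119 and 103 at ZT 8. No ZT 20 library reached the ZT 8 range. Nr1d1 fell by 0.51 ± 0.08 on the log2 scale (adjusted p = 0.0359). It lies at chr11:98767932-98775333 on the minus strand and overlaps Thra on the opposite strand, as Dbp overlaps Sphk2. The libraries are stranded, per the labels, but the counting strand was not given in the sources used here, so reads of such partners may have been shared.

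The other 24 genes of the core clock list were not called. Of all 26 tested, 2 were called lower and 0 higher, 5 were lower at an unadjusted p under 0.05 and 14 had a positive difference, against 65.6% positive among all rows. The list's median difference was 0.04, against 0.06 for all rows. It was −0.04 under median-of-ratios scaling and −0.06 on values as deposited, where all rows had medians of −0.0067 and −0.029 and 48.3% and 42.1% positive differences. Ciart, a repressor of CLOCK and BMAL1, came closest after the called pair: it had 12.4, 13.4 and 12.3 rescaled FPKM at ZT 20, against 17.4, 21.7 and 18.2 at ZT 8 (log2 difference −0.55 ± 0.17, adjusted p = 0.434). Its libraries did not overlap. Neither did those of Bhlhe41, a transcriptional repressor, at 21, 24 and 21.6 at ZT 20 against 25.6, 26.4 and 27.8 at ZT 8 (adjusted p = 0.442). Those of its paralog Bhlhe40 overlapped (log2 difference −0.33, adjusted p = 0.506). Of the 26 members, 3 were higher and 5 lower without overlap, against 23% and 4.76% of all rows. With median-of-ratios scaling these were 1 and 7, against 13.9% and 11.8%, and on values as deposited 1 and 7, against 10.2% and 13.7%.

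The activators and the negative arm of the loop showed smaller differences. Arntl, which encodes BMAL1, had 16.8, 18.8 and 18.2 rescaled FPKM at ZT 20, against 14.8, 17.7 and 12.8 at ZT 8 (log2 difference 0.24 ± 0.12, adjusted p = 0.634). Its partner Clock had a log2 difference of 0.32 ± 0.21, and the alternative partner Npas2 of 0.25 ± 0.33. Among the repressors, Per1 had a difference of −0.03 ± 0.21, Per2 of 0.14 ± 0.22, Per3 of 0.05 ± 0.18, Cry1 of −0.07 ± 0.08 and Cry2 of −0.11 ± 0.13. The libraries of Per1 overlapped, at 25.1, 24.7 and 30.8 at ZT 20 and 23.5, 35.2 and 24.4 at ZT 8. The remaining members lay between −0.42 (Rora) and 0.22 (Fbxl21), among them Nr1d2 at −0.06, Hlf at −0.27, Tef at 0.06, Nfil3 at 0.20, Rorb at 0.14, Usp2 at −0.23, Arntl2 at 0.12, Csnk1d at 0.11 and Csnk1e at 0.06. Rora rests on 1 library: its values were 17.2, 18.1 and 21 at ZT 20 and 16.2, 49.5 and 20.0 at ZT 8, and without ZT 8 replicate 2 its difference was 0.05.

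Rbm3, an RNA-binding protein that is induced by mild cold, had 144, 140 and 162 rescaled FPKM at ZT 20, against 210, 230 and 220 at ZT 8. The gap between the groups was wider than the range within either. Rbm3 fell by 0.56 ± 0.08 on the log2 scale (adjusted p = 0.0168). It lies at chrX:8138975-8145880 on the minus strand and overlaps the antisense gene Rbm3os. Its relative Cirbp, the other gene on the cold-inducible list, was not called but had the same direction, at 183, 175 and 182 at ZT 20 against 241, 261 and 244 at ZT 8 (log2 difference −0.46 ± 0.11, adjusted p = 0.251). Both members were lower at ZT 20 with libraries that did not overlap, a pattern shown by 4.76% of all rows. This also held with median-of-ratios scaling and on values as deposited, where 11.8% and 13.7% of all rows showed it.

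The fourth gene that fell, Bcl7c (chr7:127661456-127708933, minus strand), encodes a subunit of the SWI/SNF chromatin-remodelling complex. It had 23.5, 28.4 and 25.9 rescaled FPKM at ZT 20, against 34.1, 35.9 and 37.0 at ZT 8, with no overlap between the times. The fall was 0.45 ± 0.08 on the log2 scale (adjusted p = 0.0462), and the call held in 5 of 20 alternatives. Fabp7 (chr10:57784881-57788450, plus strand), the brain fatty acid-binding protein of astrocytes and neural progenitors, had the next smallest p among lower rows and missed the threshold. It had 133, 144 and 143 at ZT 20, against 249, 257 and 330 at ZT 8, a log2 difference of −0.98 ± 0.17 (adjusted p = 0.0516), so its difference was larger than that of 3 of the 4 called genes. Fabp7 was called with a minimum mean of 5 (adjusted p = 0.0433), with all 36 libraries in the fit (0.0153) and with a 24 h cosine (0.0318). It was not called without a filter (0.108), with median-of-ratios scaling (0.0907) or on values as deposited (0.138). Nor was it called without a mean-variance trend (0.0775), with a replicate block (0.0655) or with a gene length correction (0.0607).

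**Figure D2:**
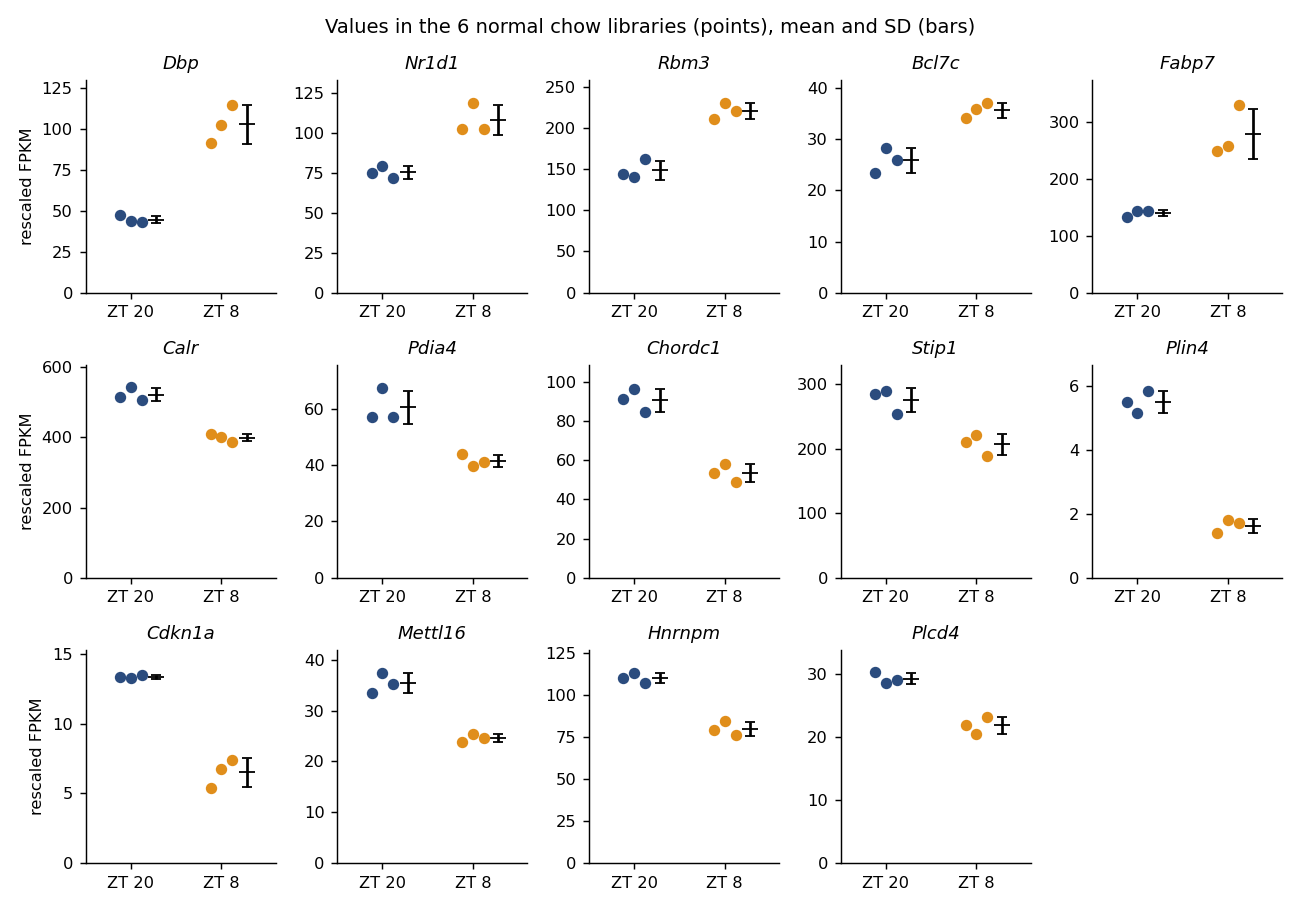
Rescaled FPKM (y axes, from 0) of the 13 called genes and of Fabp7 in the 3 ZT 20 and the 3 ZT 8 libraries under normal chow; points are libraries and bars the mean and SD. In each of these 14 panels the libraries of the 2 times do not overlap, as in 27.8% of all rows in either direction. The genes were chosen on these same libraries. Fabp7 was not called.

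The 2 co-chaperones of HSP90 rose together. Chordc1 (chr9:18292125-18317442, plus strand), a zinc-binding co-chaperone, had 90.9, 96.0 and 84.3 rescaled FPKM at ZT 20, against 53.1, 57.9 and 48.8 at ZT 8. It rose by 0.75 ± 0.12 on the log2 scale (adjusted p = 0.0248), a ratio of means of 1.70. Stip1 (chr19:7020702-7039967, minus strand), the adaptor that links HSP70 to HSP90, had 284, 289 and 254 at ZT 20, against 210, 221 and 188 at ZT 8. The rise of Stip1 was 0.42 ± 0.07 (adjusted p = 0.0382), and its lowest ZT 20 library stood above its highest ZT 8 library.

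They were the 2 called members of 39 tested cytosolic and mitochondrial heat shock chaperones, of which 0 were called lower. Of the 39, 36 had a positive difference, 25 were higher and 0 lower at an unadjusted p under 0.05, against 5.66% and 2.09% of all rows. Libraries did not overlap, with ZT 20 higher, for 25 members, against 23% of all rows. With median-of-ratios scaling this was 22 members against 13.9% of rows, and on values as deposited 15 members against 10.2%. Under each of these 2 scalings 2 members were lower without overlap, against 11.8% and 13.7% of all rows. After scaling to an equal sum 0 members were, against 4.76% of all rows. The list's median difference was 0.27, against 0.06 for all rows, and it was 0.19 with median-of-ratios scaling and 0.16 on values as deposited. The list was written with earlier results of these data known, so its direction is not independent evidence.

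Among the chaperones that were not called, the inducible HSP70 gene Hspa1b had 8.92, 8.66 and 6.83 rescaled FPKM at ZT 20, against 4.04, 4.36 and 3.90 at ZT 8 (log2 difference 0.83 ± 0.16, adjusted p = 0.0732). Its near-identical neighbour Hspa1a had a difference of 0.58 ± 0.16 (adjusted p = 0.362); reads of this pair could be split by the authors' counting, so both values are uncertain. Hsph1, an HSP110 nucleotide exchange factor, had 240, 267 and 220 at ZT 20, against 156, 192 and 151 at ZT 8 (log2 difference 0.55 ± 0.10, adjusted p = 0.0661). The abundant members Hspa8, Hsp90aa1 and Hsp90ab1 had smaller differences, at 0.34, 0.25 and 0.24 on the log2 scale. All of these had higher means at ZT 20, and of them only the libraries of Hsp90aa1 overlapped.

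In the ER, 2 of 36 tested chaperone and unfolded protein response genes rose and 0 fell. Calr (chr8:84841850-84846934, minus strand), the calcium-binding lectin chaperone calreticulin, had 516, 543 and 507 rescaled FPKM at ZT 20, against 409, 401 and 388 at ZT 8. It rose by 0.39 ± 0.05 on the log2 scale (adjusted p = 0.0134), a small fold (ratio of means 1.31) with a narrow spread within each time. Pdia4 (chr6:47796141-47813430, minus strand), a protein disulfide isomerase, had 57.1, 67.3 and 57.0 at ZT 20, against 43.9, 39.7 and 40.9 at ZT 8, and rose by 0.53 ± 0.08 (adjusted p = 0.0168). The ER HSP70 Hspa5 (BiP) had a difference of 0.50 ± 0.09 (adjusted p = 0.058) and the ER-resident co-chaperone Sdf2l1 one of 0.69 ± 0.13 (adjusted p = 0.0724), and neither was called.

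Of the 36 ER genes, 27 had a positive difference, against 65.6% of all rows. At an unadjusted p under 0.05, 14 were higher and 0 lower, against 5.66% and 2.09% of all rows. Libraries did not overlap for 18 higher and 1 lower, against 23% and 4.76% of all rows. With median-of-ratios scaling these were 11 and 4, against 13.9% and 11.8% of all rows. On values as deposited they were 9 and 4, against 10.2% and 13.7%. The median was 0.14, against 0.06 for all rows; it was 0.07 with median-of-ratios scaling and 0.04 on values as deposited, and 0 members were called under either. The 25 tested targets of ATF4 and genes of serine and one-carbon metabolism, which the same stress pathways can induce, had 0 calls and a median of 0.03.

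Promoter windows of 250 bases before the RefSeq gene start (GRCm38.p6) were searched on both strands for 7 motifs, and 11222 of 15041 tested genes had a window. The E-box CACGTG was in 8.24% of these windows, the REV-ERB and ROR element TAGGTCA in 1.58%, and the heat shock element core GAANNTTC in 4.96%. Among the called genes, 12 had a window, and only Calr and Bcl7c held any of the 7 motifs, an E-box each, 224 and 154 bases before the start. The other motifs were the D-box TTATGTAA (0.526% of all windows), the cAMP response element TGACGTCA (2.74%), the unfolded protein response element TGACGTGG (0.686%) and the glucocorticoid element ACANNNTGT (3.6%). Of the heat shock list, 7 of 32 windows (21.9%) held the heat shock core, and of the core clock list 5 of 21 (23.8%) held the E-box. Shown with the motif in capitals are the windows of the 2 called genes with an E-box and, from genes near the threshold that hold another motif, those of Fabp7 (TAGGTCA on the opposite strand, so printed as its reverse complement, 171 bases before the start) and Hspa1b (heat shock core, 104 bases before it). A match is a description of letters, not a site. The windows are Calr at chr8:84846932-84847181, minus strand; Bcl7c at chr7:127708767-127709016, minus strand; Fabp7 at chr10:57784673-57784922, plus strand; and Hspa1b at chr17:34959239-34959488, minus strand.
Calr: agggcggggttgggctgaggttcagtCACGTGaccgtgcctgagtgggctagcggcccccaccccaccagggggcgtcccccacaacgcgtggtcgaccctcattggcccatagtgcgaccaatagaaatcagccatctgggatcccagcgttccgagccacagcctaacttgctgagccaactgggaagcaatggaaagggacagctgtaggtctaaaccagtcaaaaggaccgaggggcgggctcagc
Bcl7c: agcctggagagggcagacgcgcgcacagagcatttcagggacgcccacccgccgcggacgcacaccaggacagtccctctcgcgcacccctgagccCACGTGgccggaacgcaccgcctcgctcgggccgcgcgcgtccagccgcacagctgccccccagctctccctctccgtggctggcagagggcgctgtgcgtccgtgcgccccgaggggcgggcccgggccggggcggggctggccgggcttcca
Fabp7: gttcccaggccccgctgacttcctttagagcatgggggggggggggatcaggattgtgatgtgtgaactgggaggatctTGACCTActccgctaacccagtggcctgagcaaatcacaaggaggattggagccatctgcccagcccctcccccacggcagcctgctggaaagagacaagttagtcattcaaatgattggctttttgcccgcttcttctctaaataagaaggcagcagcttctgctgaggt
Hspa1b: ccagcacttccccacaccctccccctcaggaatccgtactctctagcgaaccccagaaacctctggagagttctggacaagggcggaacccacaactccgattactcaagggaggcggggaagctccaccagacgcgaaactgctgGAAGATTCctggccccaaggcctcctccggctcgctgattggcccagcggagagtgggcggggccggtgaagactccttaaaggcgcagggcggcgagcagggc

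Plin4 (chr17:56100591-56109803, minus strand), a lipid-droplet coat protein, showed the largest rise of the called genes at a low level. It had 5.49, 5.15 and 5.83 rescaled FPKM at ZT 20, against 1.39, 1.80 and 1.71 at ZT 8, and rose by 1.31 ± 0.22 on the log2 scale (adjusted p = 0.0382), a ratio of means of 3.36. It overlaps Hdgfl2 on the opposite strand. Cdkn1a (chr17:29090976-29100727, plus strand), the cell-cycle inhibitor p21, had 13.3, 13.2 and 13.5 at ZT 20, against 5.39, 6.73 and 7.43 at ZT 8. The 3 ZT 20 libraries of Cdkn1a were nearly equal, and it rose by 0.94 ± 0.16 (adjusted p = 0.0439), a call that held in 4 of 20 alternatives.

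These were the 2 called members of 27 tested glucocorticoid-responsive genes, none of which was called lower. Of the 27, 11 were higher and 2 lower at an unadjusted p under 0.05, against 5.66% and 2.09% of all rows. Their median difference was 0.14, against 0.06 for all rows. The median was 0.08 with median-of-ratios scaling and 0.03 on values as deposited. Among those not called, the lysolipid transporter Mfsd2a had 32.0, 35.7 and 31.3 at ZT 20, against 24.1, 19.6 and 22.1 at ZT 8 (adjusted p = 0.0724), and the leucine zipper protein Tsc22d3 (GILZ) had 143, 144 and 157 against 110, 121 and 123 (adjusted p = 0.154). The co-chaperone of the glucocorticoid receptor, Fkbp5, had a log2 difference of 0.35 ± 0.12 (adjusted p = 0.502). The metallothioneins Mt1 and Mt2 had differences of −0.34 and −0.50, opposite in sign to the called members, and were not called.

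Hnrnpm and Mettl16 both act on RNA. Hnrnpm (chr17:33646233-33686860, minus strand), a regulator of splicing, had 110, 114 and 107 rescaled FPKM at ZT 20, against 79.0, 84.4 and 76.1 at ZT 8, and rose by 0.46 ± 0.08 on the log2 scale (adjusted p = 0.0382); it overlaps March2 on the same strand. Mettl16 (chr11:74770830-74828525, plus strand), an RNA methyltransferase that modifies adenosine, had 33.6, 37.5 and 35.4 at ZT 20, against 23.9, 25.4 and 24.6 at ZT 8, and rose by 0.51 ± 0.07 (adjusted p = 0.0168). In both genes the times were well apart. Plcd4 (chr1:74542888-74567794, plus strand), a phosphoinositide-specific phospholipase C, had 30.3, 28.6 and 29.0 at ZT 20, against 22, 20.5 and 23.3 at ZT 8, and rose by 0.41 ± 0.07 (adjusted p = 0.0467). It overlaps Usp37 and Zfp142 on the opposite strand. The calls held in 8 of 20 alternatives for Hnrnpm, 11 for Mettl16 and 5 for Plcd4. These genes lie in the longest quartile by exonic length, where 87.4% of differences were positive. None was called with the correction for gene length described below (limma adjusted p = 0.0995, 0.198 and 0.545).

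Of 35 tested SR proteins, hnRNPs and CLK kinases, which control splicing, 1 was called higher, Hnrnpm, and 0 lower. There were 32 with a positive difference, against 65.6% of all rows, and 11 higher and 2 lower at an unadjusted p under 0.05, against 5.66% and 2.09%. The median was 0.16, against 0.06 for all rows; it was 0.08 with median-of-ratios scaling and 0.06 on values as deposited, where 0 members were called and 7 had an unadjusted p under 0.05. The splicing activator Tra2a had the largest difference, at 118, 125 and 110 at ZT 20 against 74.2, 72.0 and 67.6 at ZT 8 (log2 difference 0.72 ± 0.15, adjusted p = 0.141). Hnrnpdl ran the other way, with a difference of −0.37, libraries that did not overlap and no call. With the correction for gene length 0 of the 35 were called, and 23 had a positive difference, against 48.8% of all rows. Their median was then 0.08, and 11 had an unadjusted limma p under 0.05, against 1108 of all 14523 rows. At the neighbouring chow times described below, 20 of the 35 had a positive difference, against 57% of all rows.

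**Figure D3:**
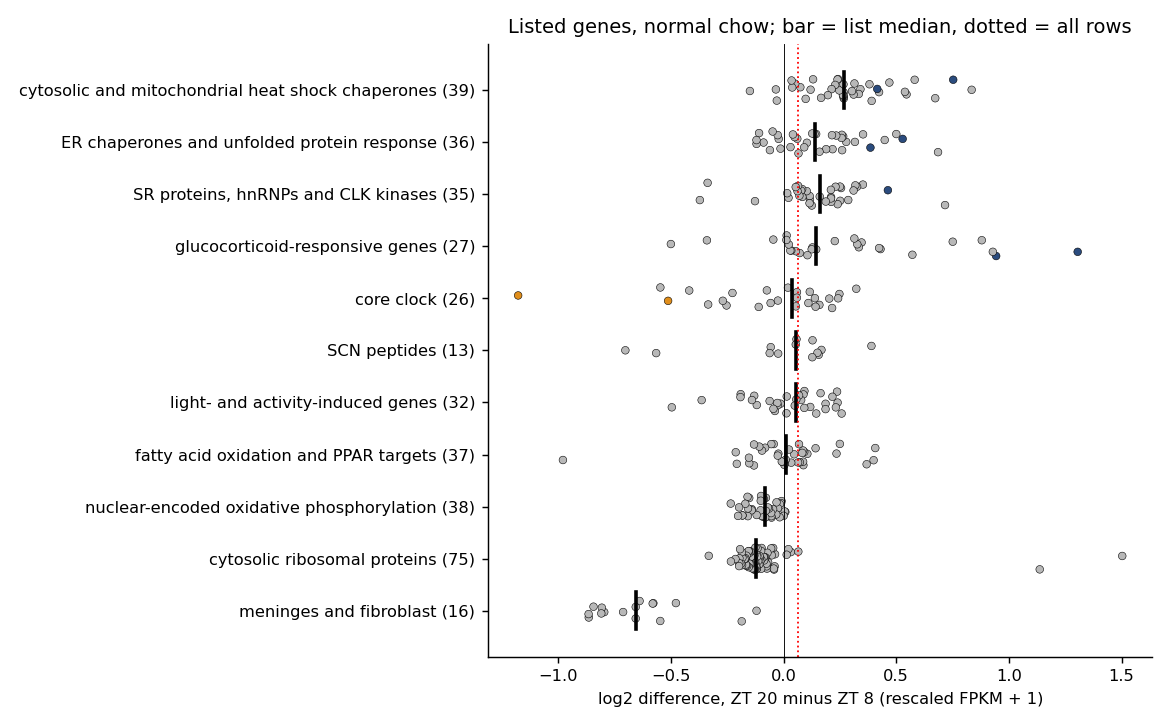
Log2 difference (ZT 20 minus ZT 8, x axis) of each tested member of 11 gene lists under normal chow; the number of members is in brackets. Black bars are list medians, the dotted line is the median of all rows (0.06), blue points were called higher and orange points lower. Heat shock chaperones have a median of 0.27 and meningeal markers one of −0.66.

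The list of SCN peptides, not all of them particular to the SCN, showed no call among 13 tested. Vip, the peptide of the light-receiving core, had 19.0, 39.0 and 24.7 rescaled FPKM at ZT 20 and 29.0, 23.6 and 18.6 at ZT 8. Avp, which marks the shell but is also made by neighbouring magnocellular neurons, had 528, 2229 and 603 at ZT 20 and 1518, 1198 and 1267 at ZT 8. The spread between libraries of a time exceeded the difference between times for both. Oxt, which belongs to neighbouring nuclei and not to the SCN, was as uneven, at 948, 3192 and 1340 at ZT 20 and 3012, 2065 and 1882 at ZT 8; the library with the most Avp at ZT 20, replicate 2, was also the one with the most Oxt. The part of dissection in the result was not tested for these peptides.

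Metabolic and biosynthetic lists had no call. Fatty acid oxidation and PPAR targets had a median difference of 0.01 over 37 genes, cholesterol and fatty acid synthesis −0.01 over 37, glycolysis 0.05 over 23 and the TCA cycle 0.01 over 22. Light- and activity-induced genes had a median of 0.05 over 32, with 1 higher and 2 lower at the unadjusted threshold. Genes of nuclear-encoded oxidative phosphorylation had 3 of 38 positive differences and a median of −0.08, and cytosolic ribosomal protein genes 6 of 75 and a median of −0.12. The medians of these 2 lists stayed below 0 under both other scalings, and were 0.002 and 0.025 with the tissue scores as covariates. Rps27 and Rpl26, whose differences were 1.5 ± 1.65 and 1.14 ± 0.62, have values that vary greatly between libraries of 1 time (Rps27 had 206, 1821 and 1905 at ZT 20); genes with many near-identical copies are uncertain in such tables. The proteasome (31), NAD salvage (17) and inflammation (27) lists had medians of −0.02, 0.09 and −0.08, and the SCN transcription factors and receptors (20) one of 0.12, all with 0 calls.

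Several lists of markers of other cells lay on 1 side of 0. All 16 meningeal and fibroblast markers had negative differences, with a median of −0.66 and no call. Dcn, a fibroblast proteoglycan, had 10.9, 11.1 and 12.7 rescaled FPKM at ZT 20, against 16.0, 20.1 and 28.5 at ZT 8 (adjusted p = 0.295). The list's summed level was 845 to 1204 at ZT 20 and 1004 to 2878 at ZT 8, with ZT 8 replicate 3 the highest, and no defining marker was at 0 in all 6 libraries. Oligodendrocyte precursor markers had 8 of 8 positive differences and a median of 0.17, and summed levels of 345 to 380 at ZT 20 and 322 to 349 at ZT 8. Summed levels of the pan-neuronal (6620 to 7100 at ZT 20, 6067 to 7495 at ZT 8), astrocyte (4948 to 5076 at ZT 20, 4230 to 5821 at ZT 8), oligodendrocyte, microglial, vascular, ependymal, choroid plexus, other hypothalamic, forebrain, blood, pituitary and liver lists overlapped between the times. Blood markers had 1 of 10 and liver markers 1 of 15 positive differences, with medians of −0.40 and −0.35. With the 5 tissue scores as covariates the differences of Dbp and Calr were −0.94 and 0.37, against −1.18 and 0.39 without them, and neither was called.

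Gene length moved with the comparison too. Over 14523 rows with a GENCODE M21 gene of the same symbol, the median difference was −0.03 in the shortest quartile by exonic length and 0.16 in the longest, with 42.6% and 87.4% of differences above 0. In each library, the median deviation of the longest quartile minus that of the shortest was 0.146, 0.152 and 0.15 at ZT 20, against −0.074, −0.023 and −0.005 at ZT 8. When this slope on length was removed from each library, an alternative chosen after seeing the data, 8 rows were called, of which 7 were among the 13: Dbp, Nr1d1, Rbm3, Chordc1, Pdia4, Plin4 and Cdkn1a. The heat shock list's median difference was then 0.20 and the median of all rows −0.004.

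**Figure D4:**
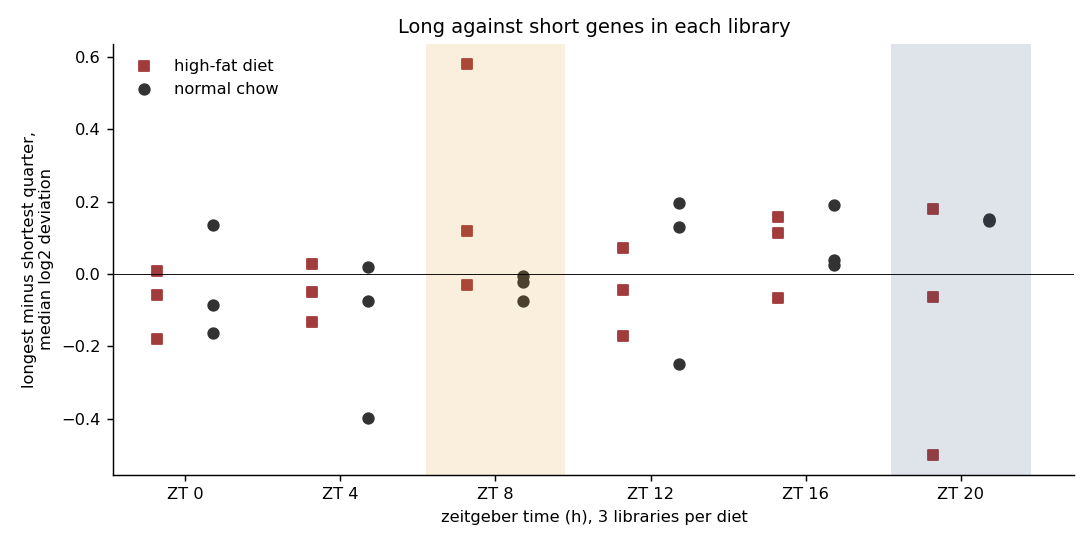
Median log2 deviation from the row means of the longest quartile of genes minus that of the shortest quartile (y axis) in each library, by zeitgeber time (x axis), with high-fat libraries as red squares left of chow libraries as dark circles. Chow libraries lie at 0.146 to 0.152 at ZT 20 and at −0.074 to −0.005 at ZT 8; 1 high-fat library at ZT 8 (0.581) and 1 at ZT 20 (−0.5) stand apart.

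Chow libraries from the neighbouring times were used to ask whether the called genes also differed there. The 6 libraries at ZT 16 and 0 were compared with the 6 at ZT 4 and 12, in a fit without the ZT 20 and ZT 8 libraries. No row of 15184 was called by limma (0%), with an unadjusted p under 0.05 in 915 rows (6.03%). All 13 genes had the same sign as between ZT 20 and ZT 8, against 67% of all rows, and 10 of the 13 had an unadjusted p under 0.05. The calls used a spread estimated partly from these same neighbouring libraries. A small p of a called gene here is therefore not independent of its call. Dbp had a difference of −0.66 ± 0.09 (adjusted p = 0.0705), Rbm3 of −0.47 ± 0.06 (adjusted p = 0.0672) and Chordc1 of 0.57 ± 0.09 (adjusted p = 0.102). The exceptions at the unadjusted threshold were Plin4, at 0.07 ± 0.18, Cdkn1a, at 0.15 ± 0.12, and Bcl7c, at −0.07 ± 0.06.

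The time courses under chow show where ZT 20 and ZT 8 fall in the day. Dbp averaged 42.9, 62.5, 103, 95.4, 54.9 and 44.6 rescaled FPKM at ZT 0, 4, 8, 12, 16 and 20 (SD 2.14 to 13.2, n = 3 each), so ZT 8 was its highest time and ZT 20 lay next to its lowest. Rbm3 averaged 111, 149, 220, 232, 160 and 149, with its highest mean at ZT 12 and its lowest at ZT 0. Calr averaged 514, 510, 399, 409, 517 and 522, a level that was low at 2 neighbouring times and nearly even at the other 4.

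Chordc1 averaged 86.5, 64.0, 53.3, 59.1, 97.7 and 90.4 rescaled FPKM over the same times, lowest at ZT 8. Plin4 averaged 2.35, 1.32, 1.63, 8.23, 5.84 and 5.49 and Cdkn1a 11.5, 9.08, 6.51, 13.8, 13.2 and 13.4, so both had their highest mean at ZT 12, a time that stands on the day side of the neighbouring comparison. Fabp7 averaged 343, 318, 279, 152, 92.3 and 140, highest at ZT 0 and lowest at ZT 16. For Fabp7, ZT 20 and ZT 8 are therefore neither the lowest nor the highest of the 6 times.

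**Figure D5:**
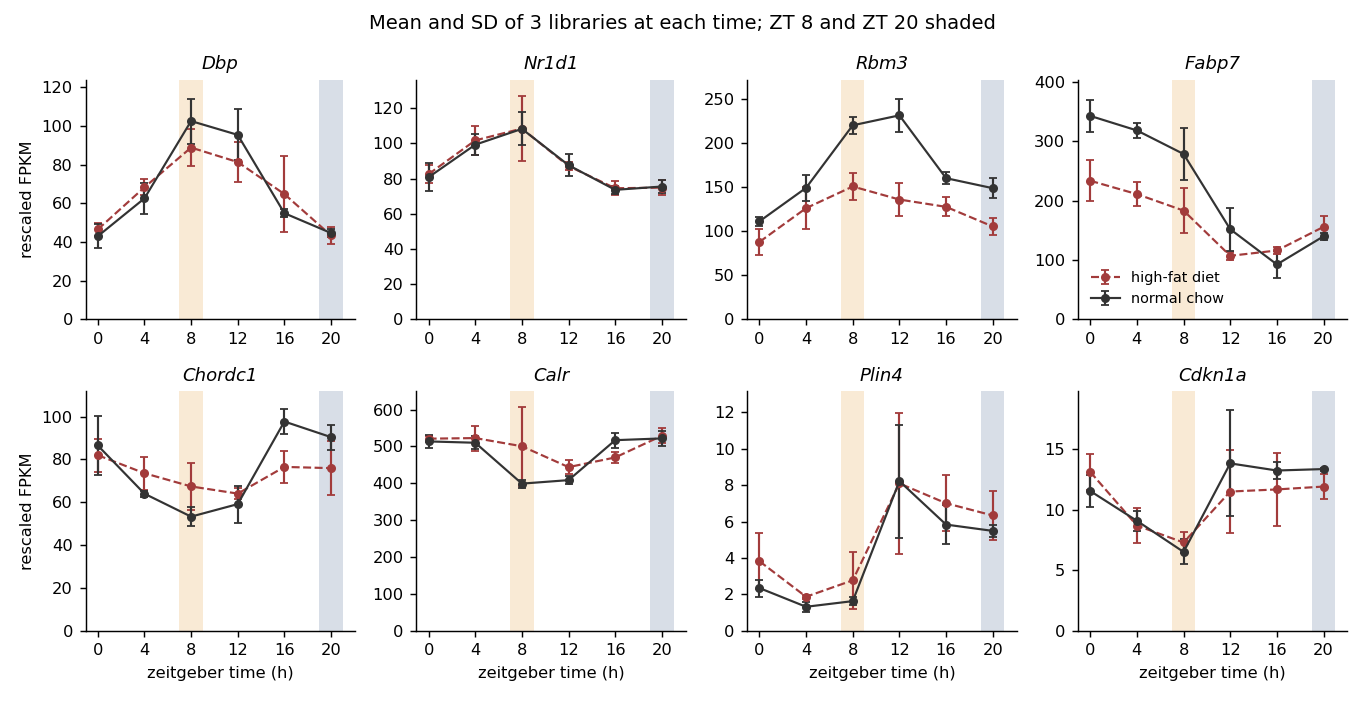
Rescaled FPKM (y axes, from 0; mean and SD of 3 libraries) of 8 genes at 6 zeitgeber times in hours (x axes) under high-fat diet (dashed) and normal chow (solid), with ZT 8 and ZT 20 shaded. Under chow Dbp is highest at ZT 8 (103) and Plin4 at ZT 12 (8.23).

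Other pairs of chow times 12 h apart gave similar numbers of calls in the same 18-library fit. ZT 12 minus ZT 0 had 9 higher and 7 lower, and ZT 16 minus ZT 4 had 12 higher and 10 lower, beside the 9 and 4 of ZT 20 minus ZT 8.

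Under high-fat diet, ZT 20 minus ZT 8 was fitted in libraries that the chow comparison does not use. No row of 15106 was called by limma (0%), although 1814 (12%) had an unadjusted p under 0.05. The sign under high-fat diet was that under chow for 10 of the 13 genes, against 33.2% of all rows, and 5 of these had an unadjusted p under 0.05: Dbp, Nr1d1, Rbm3, Plin4 and Cdkn1a. Of the 3 with the opposite sign, Bcl7c had an unadjusted p of 0.0468 (limma), and Mettl16 and Stip1 had differences of −0.08 ± 0.15 and −0.07 ± 0.17. The low share over all rows goes with the median difference, which was −0.13 under high-fat diet and 0.06 under chow after scaling to an equal sum; with median-of-ratios scaling the medians were 0 and −0.0067. Dbp averaged 43.3 ± 4.58 rescaled FPKM at ZT 20 and 88.9 ± 9.76 at ZT 8 on the high-fat diet (SD, n = 3 each), a log2 difference of −1.02 ± 0.16 (adjusted p = 0.228). Nr1d1 had a high-fat difference of −0.52 ± 0.10 and Plin4 one of 1.03 ± 0.34, both with an adjusted p of 0.373.

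The high-fat comparison contained 2 libraries that stand apart on gene length, ZT 20 replicate 3 (−0.5) and ZT 8 replicate 2 (0.581). Without them, an alternative chosen after seeing the data, all 13 genes had the chow sign and 8 had an unadjusted p under 0.05, against 196 rows in all (1.3%); still no row was called. Calr then had a difference of 0.24 ± 0.07 under high-fat diet, Hnrnpm of 0.33 ± 0.09 and Chordc1 of 0.38 ± 0.13. With all libraries these were 0.10 ± 0.11, 0.08 ± 0.15 and 0.17 ± 0.13. Bcl7c was the gene that changed most, at 0.36 ± 0.17 with all libraries and −0.01 ± 0.11 without the 2.

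The lists moved likewise. The heat shock list's median difference was −0.03 under high-fat diet with all libraries, with 18 of 39 positive against 30.8% of all rows, and 0.13 without the 2, with 35 of 39 against 55.6% of all rows. The ribosomal protein list's was 0.30 with all libraries, with 74 of 75 positive, and −0.04 without the 2, with 13 of 75.

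The difference between diets was tested directly over all 36 libraries, as the high-fat ZT 20 minus ZT 8 difference minus the chow one. No row of 15173 was called by limma (0%; smallest adjusted p 0.221), with an unadjusted p under 0.05 in 3278 rows (21.6%) and 153 (1.01%) without the 2 libraries. A change called under chow was therefore not shown to differ under high-fat diet for any gene. The 5 rows with the smallest p were Bcl7c (0.81 ± 0.19), Lage3 (0.70 ± 0.17), Npy2r (−0.99 ± 0.25), D430042O09Rik (−0.81 ± 0.20) and Zfp493 (−0.69 ± 0.18), each with an adjusted p of 0.221. Bcl7c averaged 32.4 ± 6.12 rescaled FPKM at ZT 20 and 25.4 ± 6.99 at ZT 8 under high-fat diet, against 25.9 ± 2.45 and 35.7 ± 1.47 under chow (SD, n = 3 each). For Dbp the diet difference was 0.16 ± 0.21, for Nr1d1 −0.0049 ± 0.13 and for Rbm3 0.05 ± 0.18, with errors as large as or larger than the difference for each. At an unadjusted p under 0.05, 8 of the 13 called genes had a diet difference, each opposite in sign to the chow change: Calr, Pdia4, Mettl16, Chordc1, Hnrnpm, Stip1, Bcl7c and Plcd4. Among them Chordc1 had −0.58 ± 0.18 and Mettl16 −0.59 ± 0.17. Without the 2 libraries the count was 2 of 13, Mettl16 and Bcl7c. The contrast subtracts the chow difference on which these genes were chosen, so an opposite sign is favoured by the choice and is not independent evidence. Over all rows and all libraries, 643 were higher and 2635 lower at the unadjusted limma threshold.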

How the data were processed

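RNA from SCN-enriched tissue was sequenced in 36 libraries. Per the submitters' processing notes, the authors used Trimmomatic, TopHat and Cufflinks with mm10 (GRCm38); versions, settings and counting strand were not given in the sources used here. The deposited values were taken as FPKM, inferred from the values and Cufflinks; sequencing depth is unknown, so no counting interval is given. Each table has 24883 rows and 24346 symbols; 280 symbols stand on several rows, which were kept apart. From these values each library was rescaled to a sum of 1000000, log2(value + 1) was taken, and rows with a mean of at least 1 over the fit's libraries were tested with limma 3.58.1 (R 4.3.3; two-sided, mean-variance trend, Benjamini-Hochberg over all rows), over 18 chow libraries with 12 residual degrees of freedom. The test was checked on simulated data with independent noise for each row. These held no effect shared across a library, such as that of gene length, so the check does not show the error rate here. No 2 libraries held identical values.

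Members and lists were chosen with earlier results of these data known. Named genes were called rows, up to the 5 smallest p in a direction with fewer calls, all clock and cold-inducible genes, and the 5 smallest p for the diet difference; other list members were chosen after their values were seen. A few list members are not reported here by name; counts and medians of lists cover all members. Samples were grouped by labelled diet and time. Promoters are from RefSeq, GRCm38.p6; gene positions are from GENCODE M21. The alternatives were pseudocounts of 0.1 and 0.5, other filters and scalings, no trend, a replicate block, other sets of libraries, tissue scores, a 24 h cosine, a gene length correction and leaving out replicates.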

Additional observations from a re-analysis of the deposited data

How the results depend on the processing

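The chow count of 13 was within 1.5 times under pseudocounts of 0.1 and 0.5 (14 each), no filter (12), a mean of at least 5 (14) and without ZT 0 replicate 1 (10). It moved to 8 with median-of-ratios scaling, 8 without a mean-variance trend, 8 with the length correction, 6 with the 6 libraries alone, 6 with all 36, 5 as deposited, 0 with 5 tissue scores and 121 (77 higher, 44 lower) with a 24 h cosine and sine; leaving out single ZT 20 or ZT 8 libraries gave 1 to 7. The cosine set shared 11 of the 13 genes, the 6-library set 2, and the 36-library set 3. The causes were not tested. Whether the replicate numbers pair the libraries was not tested. Between ZT 20 and ZT 8 libraries, deviations from the time means correlated at 0.054 to 0.084 for the same number. For different numbers the correlations were −0.123 to 0.052. The replicate block gave 14 calls, 10 shared, and 0 in each of the other 3 comparisons. Chow rows with an unadjusted limma p under 0.05 were then 1332, against 1174 without the block. The high-fat count of 0 moved to 2 with its 6 libraries alone and 2 with all 36. The diet difference stayed at 0 in every alternative run. The neighbouring-time count of 0 moved to 1 with median-of-ratios scaling, 1 as deposited and 1 with the length correction, and ranged from 0 to 2 without single libraries. 

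Alternatives were run by gene for the called genes, Fabp7, and the cold-inducible and clock genes; among those reported, signs reversed only for clock genes that were not called. Reversed values were, with median-of-ratios scaling, Tef −0.019, Csnk1e −0.018 and Per3 −0.020; as deposited, Tef −0.045, Csnk1e −0.043 and Per3 −0.040; with the length correction, Rorb −0.0081, Tef −0.060, Csnk1e −0.045 and Per3 −0.081. With tissue scores they were Clock −0.11, Csnk1d −0.0089, Fbxl21 −0.22, Rorb −0.10, Per2 −0.15, Csnk1e −0.087 and Per3 −0.023, and with the cosine Per2 −0.034 and Per3 −0.015. Without single libraries, Per1 ran from −0.13 to 0.15, Rora from −0.72 to 0.050, Cry2 from −0.23 to 0.011 and Csnk1e from −0.0058 to 0.15.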

Other observations

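A few rows outside the lists are given here, chosen after their values were seen. They were not called and lay further from the threshold than Fabp7. Sfpq, a splicing and paraspeckle protein, had 123, 128 and 126 rescaled FPKM at ZT 20, against 79.3, 84.5 and 81.6 at ZT 8, a limma log2 difference of 0.62 ± 0.13 (adjusted p = 0.160). Pllp, the myelin protein plasmolipin, had 57.3, 51.3 and 73.7 at ZT 20, against 88.5, 110 and 87.3 at ZT 8, a difference of −0.65 ± 0.14 (adjusted p = 0.181). Npy2r, a receptor of neuropeptide Y, had 26.6, 24.1 and 28 at ZT 20, against 20.4, 16.1 and 16.8 at ZT 8, a difference of 0.54 ± 0.11 (adjusted p = 0.130). In all 3 the libraries of the times did not overlap, a pattern that 27.8% of all rows showed in either direction. At the neighbouring chow times the differences had the same signs, at 0.35 ± 0.11 for Sfpq, −0.52 ± 0.09 for Pllp and 0.20 ± 0.08 for Npy2r. Under high-fat diet they were 0.02 ± 0.17, −0.22 ± 0.13 and −0.45 ± 0.22.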
